A study of Mus musculus with 8 samples.

Results

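The Bloodlinc knockdown was examined in 3 of the 8 libraries of the study: 1 library with a control hairpin and 1 library with each of 2 short hairpin RNAs against Bloodlinc, called hairpin 1 and hairpin 2 here. The libraries were chosen by their labels alone, and all genes were used. Erythroid progenitors of C57BL/6 fetal livers (E14.5 embryos) received the hairpins by transduction and were then kept for 24 h in medium with erythropoietin, the hormone that drives red cell production. Total RNA without ribosomal RNA was sequenced and counted per gene. The control library carries a different hairpin in the same kind of cells, so all 3 libraries share strain, stage, transduction and culture time. The other 5 libraries were the hnRNPU control hairpin, 2 hairpins against hnRNPU, an empty vector and a Bloodlinc expression vector, made in the same way. They enter here only as part of the estimate of spread, as further controls (the hnRNPU control hairpin and the empty vector), or as the opposite manipulation. Hairpin sequences, the target of the control hairpin, the number of animals and the share of cells that took up a hairpin are not given in the sources used here. With 1 control library, and with no label saying that the 2 hairpin libraries came from separate cultures, the p-values cover no more than the spread among these samples, which may be technical.

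Bloodlinc is a long noncoding RNA transcribed close to Slc4a1, the gene of the anion exchanger band 3 of the red cell membrane. Long noncoding RNAs are not translated, and a short hairpin RNA is processed into a small interfering RNA that guides the cutting of a matching transcript. During the terminal maturation of erythroblasts, cells divide a few more times, fill with hemoglobin, condense the nucleus and expel it. The gene (ENSMUSG00000087330) covers chr11:102375549-102377020 on the minus strand of GRCm38. Its annotated spliced transcript has 679 bases, and its first 300 bases are shown because this is the RNA the hairpins were directed against (GENCODE M21, all in lower case because no motif is marked).
Bloodlinc: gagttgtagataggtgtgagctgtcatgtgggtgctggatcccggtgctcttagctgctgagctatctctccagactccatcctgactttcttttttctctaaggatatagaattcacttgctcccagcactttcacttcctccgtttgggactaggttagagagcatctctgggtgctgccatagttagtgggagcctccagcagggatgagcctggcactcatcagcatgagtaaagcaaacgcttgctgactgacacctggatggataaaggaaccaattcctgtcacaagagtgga

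Bloodlinc itself had 87 counts with the control hairpin, 50 with hairpin 1 and 54 with hairpin 2, which came to 4.46, 2.19 and 1.75 CPM. CPM are counts scaled to the size of the library, here after TMM, a correction for differences in library composition. Both hairpin libraries lay below the control, and the mean over the hairpins was 1.97 ± 0.312 CPM (SD, n = 2). Counting error alone gave a log2 ratio of −1.02 for hairpin 1 (95% exact interval −1.56 to −0.51) and of −1.35 for hairpin 2 (−1.87 to −0.84). The edgeR quasi-likelihood fit, which also carries the spread between libraries, gave a log2 fold change of −1.18 with an SE of 0.81 and did not pass (Benjamini-Hochberg adjusted p = 1). The hnRNPU control hairpin library, at 4.35 CPM, lay near the Bloodlinc control, whereas the empty vector library, at 1.26 CPM, lay below both hairpins. A predicted gene on the plus strand, Gm34253, overlaps Bloodlinc. The libraries marked strand with dUTP, per the labels, but the strand setting of the counting is not given in the sources used here, so reads of the 2 genes may not have been told apart.

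The 3 libraries held 23682993 to 26737017 counts in genes, so that 3 counts, the limit that a count of 0 allows, correspond to 0.112 to 0.127 CPM. Between 21.7% and 25.3% of their uniquely placed counts lay outside genes, against 89.7% and 86.6% in the shallow hnRNPU hairpin libraries, whose spread enters the fit. The cells carried their label: the summed level of 9 erythroblast markers, among them Tfrc and Alas2, was 50541 CPM with the control hairpin, 29514 with hairpin 1 and 22500 with hairpin 2. It was 33226 CPM with the hnRNPU control hairpin and 11443 CPM with the empty vector. In bulk RNA, fewer cells of a type and less RNA per cell cannot be told apart. Markers of 5 early erythroid progenitor genes summed to 26.9, 58.1 and 23.9 CPM in the control, hairpin 1 and hairpin 2 libraries. The sum was 128 CPM with the hnRNPU control hairpin and 305 CPM with the empty vector. Kit, the stem cell factor receptor gene that erythroblasts shut off, was at 6.30, 28.1 and 6.35 CPM. In those other controls Kit was at 25.1 and 115 CPM. Granulocyte markers (8 genes) summed to 100 CPM in the control and to 41.3 and 52.8 CPM with the hairpins, against 1591 CPM with the hnRNPU control hairpin and 954 CPM with the empty vector. Macrophage markers (10 genes) summed to 4.15, 3.59 and 24.6 CPM, against 21.3 CPM with the hnRNPU control hairpin and 24.3 CPM with the empty vector. Csf1r made up most of the hairpin 2 value, at 22.5 CPM, and was at 12.5 and 4.84 CPM in these other controls. Megakaryocyte markers (7 genes) came to 56.9, 52.9 and 98.5 CPM, with 75.8 and 61.2 CPM in the other controls. Mast cell or basophil markers (5 genes) came to 7.33, 3.24 and 3.31 CPM, with 16.7 and 27.0 CPM in the other controls. In the 3 libraries, hepatocyte markers summed to at most 1.13 CPM, stellate or fibroblast markers to at most 0.94 CPM, B cell markers to at most 0.292 CPM, T or NK cell markers to at most 6.66 CPM and endothelial markers to at most 8.07 CPM. Defining markers with 0 counts in all 3 libraries included Igll1, Pax5, Cd3e, Stab2, Lyve1, Serpina1a, Cd5l, Col3a1 and Dcn. The respiratory chain genes of the mitochondrial genome summed to 9668, 10185 and 8657 CPM in the 3 libraries, against 12847 CPM with the hnRNPU control hairpin and 16023 CPM with the empty vector. Single members differed widely: mt-Cytb was at 55.9, 94.6 and 65.1 CPM against 1063 and 1551 CPM, whereas mt-Atp6 was at 145, 246 and 166 CPM against 139 and 203 CPM. The labels name no batch, and the part of these differences in the results was not tested.

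Genes around Bloodlinc gave no call. Slc4a1, which lies 9346 bp away, was at 13367 CPM with the control hairpin, 7709 CPM with hairpin 1 and 5507 CPM with hairpin 2, so both hairpins lay lower. In edgeR's quasi-likelihood test the log2 fold change was −1.02 (SE 0.69, adjusted p = 1), and it was 0.0774 against the hnRNPU control hairpin, where Slc4a1 stood at 6263 CPM. On the same side, Ubtf, the activator of RNA polymerase I, was at 288, 239 and 223 CPM, and Tmub2 was at 32.6, 34.8 and 30.3 CPM. Atxn7l3, a subunit of a histone deubiquitinase, was at 68.9, 83.2 and 54.4 CPM, and Asb16 had at most 1 count in any of the 3 libraries. Hairpins thus lay on both sides of the control for Atxn7l3 and Tmub2. On the other side of Bloodlinc, the mitochondrial carrier gene Slc25a39, needed for glutathione import, was at 311, 200 and 148 CPM. Rundc3a was at 32.3 and 39.3 CPM with the control and hairpin 1 but at 4.05 CPM with hairpin 2. Itga2b, the megakaryocyte integrin gene, was at 24.0, 18.9 and 63.9 CPM, so these 2 genes differed from the control with hairpin 2 alone or in opposite directions. Grn, the progranulin gene, was at 4.00, 3.55 and 3.47 CPM, and Gpatch8 at 54.8, 60.4 and 66.6 CPM, both close to the control.

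The comparison of both hairpins with the control asked which genes follow Bloodlinc when its level is lowered. Of 15355 genes tested, 12 rose with both hairpins (0.0782% of the genes) and 4 fell with both (0.0261%) in edgeR's quasi-likelihood test at a Benjamini-Hochberg adjusted p under 0.05. Another 3 genes passed while hairpin 1 lay below the control, namely Mical1, Stard9 and Trim16, and are not read as changed. At an unadjusted p under 0.05 there were 613 genes, 419 higher and 194 lower. All 12 genes that rose were higher with hairpin 2 than with hairpin 1, 8 of the 16 differed by more than 4-fold between the hairpins, and 3 (Col18a1, Mgarp and Cd82) were within 1.5-fold of each other. For 8 of the 12 that rose and 4 of the 4 that fell, each hairpin alone was at least 2-fold away from the control. In 9 of the 16, both hairpins also lay outside the range of all 3 control libraries (the 2 control hairpins and the empty vector): 8 that rose and Nyx among those that fell. Without hairpin 2, and in fits with the 3 libraries alone, without the hnRNPU hairpins or after a filter of 5 CPM, 0 genes passed, with 291, 369, 504 and 278 at an unadjusted p under 0.05. DESeq2 called 5 of the 16 and limma-voom 0.

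**Figure D1:**
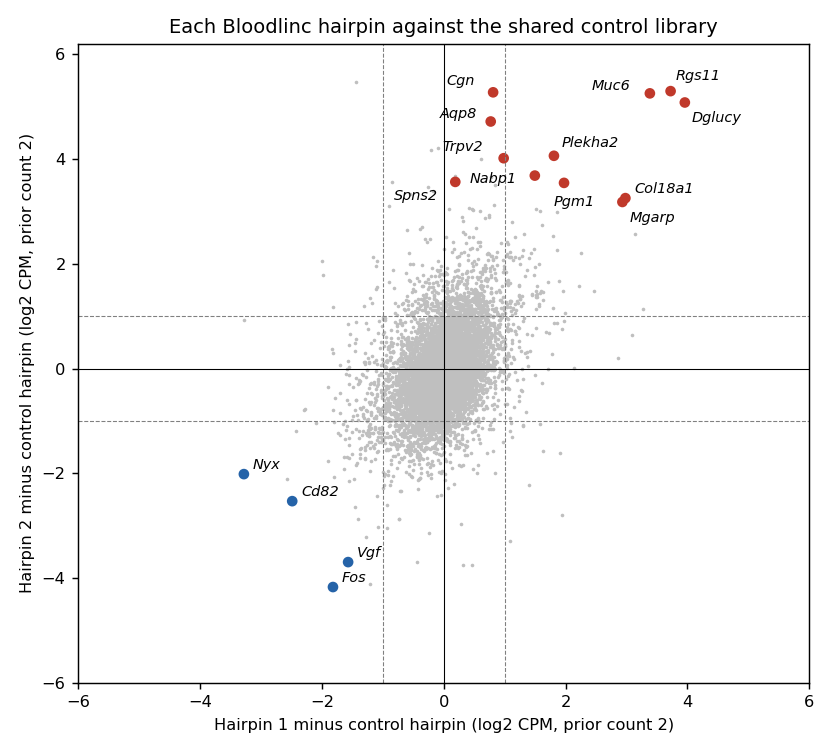
Log2 difference of each Bloodlinc hairpin library from the 1 control hairpin library, hairpin 1 on the horizontal and hairpin 2 on the vertical axis (log2 CPM, prior count 2). Grey points are genes with a mean of at least 5 CPM, red points the 12 genes that rose and blue points the 4 that fell; dashed lines mark 2-fold. The labelled genes that rose lie between 3.18 and 5.30 for hairpin 2 but between 0.19 and 3.96 for hairpin 1, and both axes share the control library.

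The genes that rose included 3 whose products shape the cell surface and its surroundings. Col18a1 (chr10:77052178-77166548, minus strand), which encodes the basement membrane collagen from which endostatin is cut, was at 6.25 CPM with the control hairpin, 49.9 CPM with hairpin 1 and 60.4 CPM with hairpin 2. Both hairpins were far above the control, and above the 6.53 CPM of the hnRNPU control hairpin and the 21.6 CPM of the empty vector (log2 fold change 3.14, SE 0.67, edgeR adjusted p = 0.00991). Muc6, a gel-forming mucin of the stomach, was at 0.256, 3.42 and 12.7 CPM, where the control value stood on 5 counts (log2 fold change 4.95, SE 1.14). Cgn, the tight junction protein cingulin, was at 0.666, 1.23 and 28.8 CPM. Its hairpin 1 library lay below the 1.47 CPM of the hnRNPU control hairpin, so the rise stood on hairpin 2 (log2 fold change 4.49, SE 1.01). Among 23 matrix genes tested, Col18a1 was the member that rose, and 12 were higher and 3 lower with both hairpins. Over all genes tested, 31.5% were higher and 30.7% lower with both. Above all 3 controls lay 1 of the 23, Col18a1, and below them lay 3, against 10.9% and 11.3% of all genes tested. The median log2 differences were 0.36 with hairpin 1 and 0.78 with hairpin 2, but −1.14 and −0.92 against the hnRNPU control hairpin. The laminin gene Lamc1 was at 2.10, 5.35 and 12.9 CPM against 20.8 CPM with the empty vector. Cgn was likewise the member that rose among 20 genes of tight and adherens junctions, of which 9 were higher and 5 lower with both.

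Metabolic genes that rose were Mgarp, Pgm1 and Dglucy. Mgarp (chr3:51388412-51396738, minus strand), a mitochondrial membrane protein also known as the hypoxia-upregulated regulator of mitochondrial movement, was at 6.77, 52.2 and 62.1 CPM in the control, hairpin 1 and hairpin 2 libraries. All 3 controls lay well below both hairpins, since the hnRNPU control hairpin and the empty vector were at 1.495 and 2.95 CPM (log2 fold change 3.08, SE 0.70, edgeR adjusted p = 0.0213). Pgm1 (chr4:99929414-99987294, plus strand), a phosphoglucomutase that links glycogen to glycolysis, was at 5.07, 20.2 and 60.2 CPM. Its other controls were at 6.35 and 13.2 CPM, below both hairpins (log2 fold change 2.98, SE 0.70, edgeR adjusted p = 0.0246). Dglucy, the D-glutamate cyclase of mitochondria, was at 0.256, 5.13 and 11.3 CPM, with 5 counts in the control. Here the other controls, at 3.96 and 4.40 CPM, came close to hairpin 1, and the control of the comparison was the low library (log2 fold change 4.98, SE 1.04).

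Signalling and lipid genes formed another group. Rgs11, which speeds the shut-off of G protein signals, was at 0.461, 7.06 and 21.2 CPM, while the other controls were at 0.236 and 0.581 CPM. All 3 controls lay far below hairpin 1, the lower of the hairpins (log2 fold change 4.92, SE 1.05). Plekha2, an adaptor with phosphoinositide-binding domains, was at 2.97, 10.6 and 51.0 CPM (log2 fold change 3.37, SE 0.73). Spns2, the exporter of sphingosine-1-phosphate, was at 15.4, 17.5 and 183 CPM, and hairpin 1 lay below the 28.3 CPM of the hnRNPU control hairpin and the 23.4 CPM of the empty vector (log2 fold change 2.71, SE 0.64). Spns2 and Rgs11 were the members that rose among 23 tested genes of sphingolipid transport and G protein signalling, of which 9 were higher and 3 lower with both hairpins.

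Aqp8 and Trpv2 encode membrane channels, and both calls leaned on hairpin 2. Aqp8, a water and peroxide channel, was at 2.36, 4.08 and 64.1 CPM, and hairpin 1 lay just above the 3.31 CPM of the empty vector (log2 fold change 3.85, SE 0.82). Trpv2, a cation channel, was at 5.48, 10.9 and 90.1 CPM, and the empty vector, at 26.7 CPM, lay above hairpin 1 (log2 fold change 3.20, SE 0.68). Trpv2 was the member that rose among 29 ion channel and pump genes. Nabp1, which encodes a single-stranded DNA-binding protein of DNA repair, was at 5.18, 14.7 and 67.6 CPM, with the empty vector at 18.1 CPM (log2 fold change 2.99, SE 0.69).

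The 4 genes that fell have roles at the membrane, in early signalling and in secretion. Cd82 (chr2:93419111-93463140, minus strand), a tetraspanin that organises adhesion receptors, was at 93.1 CPM with the control hairpin, 16.5 CPM with hairpin 1 and 16.05 CPM with hairpin 2. The hairpins nearly coincided, the hnRNPU control hairpin was high at 66.1 CPM, and the empty vector was the lowest of these libraries at 5.42 CPM (log2 fold change −2.52, SE 0.52, edgeR adjusted p = 0.00991). Nyx (chrX:13466110-13489313, plus strand), a leucine-rich proteoglycan known from the retina, was at 26.7, 2.67 and 6.55 CPM. Both hairpins lay below all controls, of which the hnRNPU control hairpin, at 8.53 CPM, came closest (log2 fold change −2.53, SE 0.56, edgeR adjusted p = 0.0171). Fos, the immediate early transcription factor, was at 33.5, 9.42 and 1.78 CPM, but at 4.98 and 7.81 CPM in the other controls, both below hairpin 1. Its log2 fold change of −2.58 (SE 0.62) turned to 0.16 against the hnRNPU control hairpin. Vgf, a precursor of secreted peptides, was at 57.2, 19.2 and 4.34 CPM, with the other controls at 22.6 and 17.1 CPM (log2 fold change −2.28, SE 0.55). Among 29 adhesion receptor, tetraspanin and integrin genes tested, Cd82 was the member that fell, and 13 were lower and 9 higher with both hairpins. The integrin alpha 4 gene Itga4 was at 1424, 825 and 509 CPM, with 561 and 282 CPM in the other controls. The scavenger receptor gene Cd36 was at 73.4, 29.98 and 22.4 CPM. Its other controls, at 14.1 and 5.35 CPM, lay below both hairpins. Among 22 immediate early genes, Fos was the member that fell, and 12 were lower and 4 higher with both hairpins. Below all controls lay 3 of the 22, against 11.3% of all genes tested. Fosb was at 22.7, 9.73 and 1.23 CPM and Dusp1 at 73.2, 27.0 and 32.8 CPM. In the other controls Fosb was at 0.735 and 1.23 CPM, so that the control hairpin of the comparison was the high library for both Fos genes.

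**Figure D2:**
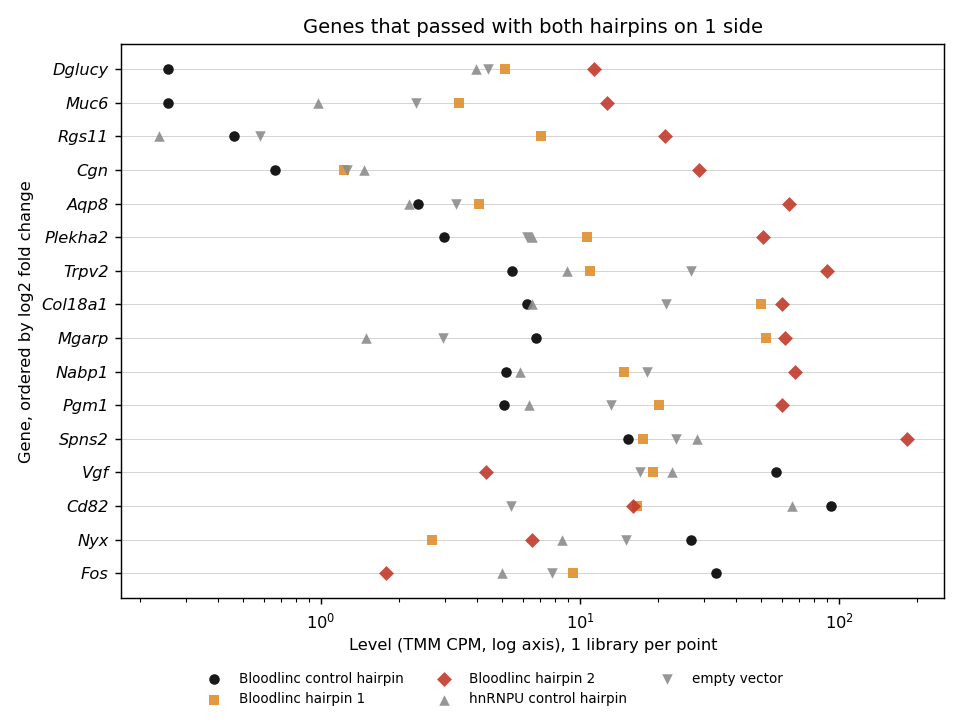
Level of the 16 genes that passed with both hairpins on 1 side (TMM CPM, log axis, 1 point per library), ordered by log2 fold change. Black circles are the control hairpin, orange squares hairpin 1, red diamonds hairpin 2 and grey triangles the 2 other controls. Mgarp, Col18a1 and Rgs11 show both hairpins to the right of every control, whereas for Cgn and Spns2 the hairpin 1 square lies among the controls.

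The same 16 genes were read in the overexpression pair, which shares no library with the knockdown and has 1 library on each side, hence no test. Bloodlinc itself was at 52 counts in the empty vector library and at 250 counts after overexpression. Of the 12 genes that rose in the knockdown, 10 were lower with the Bloodlinc vector, against 48.6% of all genes tested, and of the 4 that fell, 1 (Cd82, at 5.42 and 6.42 CPM) was higher. All of these differences were small beside the knockdown values: the largest was a log2 ratio of −0.62 for Dglucy (95% counting interval −0.96 to −0.29; 4.40 and 2.86 CPM). The interval lay away from 0 for 3 genes, namely Dglucy, Nabp1 (−0.35, from −0.50 to −0.19) and Fos (−0.44, from −0.68 to −0.20). Fos was thus lower in both manipulations. These intervals cover counting error only.

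Beyond the genes that passed, single-library differences give the wider picture, as a description without a test, since both hairpins share the control library. With both hairpins, 31.5% of genes were higher and 30.7% lower than the control, and the other 37.8% were split between the hairpins. Among 8073 genes with a mean of at least 5 CPM, 99 (1.23%) were at least 2-fold higher with both hairpins and 91 (1.13%) at least 2-fold lower, while 23 passed 2-fold in opposite directions. All the higher genes that matched the annotation, 96, were protein-coding. The lower set held 70 protein-coding genes and 6 small nucleolar RNAs. Hairpin 2 moved further: 711 genes were at least 2-fold higher and 653 lower with it, against 186 and 230 with hairpin 1. The median size of the log2 difference was 0.27 for hairpin 1 and 0.45 for hairpin 2 against the control, 0.42 between the hairpins, and 0.50 between the 2 control hairpin libraries. Differences between controls were therefore as large as those between a hairpin and its control. When the hairpins also had to lie outside all 3 controls, 55 genes (0.681%) were at least 2-fold higher and 42 (0.52%) at least 2-fold lower. Without the 2-fold bound, 10.9% of all genes tested lay above and 11.3% below all controls with both hairpins.

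Some of these genes lay outside all controls with both hairpins but did not pass. Tph1, the rate-limiting enzyme of serotonin synthesis outside the brain, was at 3.13, 28.1 and 18.96 CPM in the control, hairpin 1 and hairpin 2 libraries, with at most 4.31 CPM in the other controls (log2 fold change 2.91, SE 0.80, edgeR adjusted p = 0.141). Aldoc, an aldolase of glycolysis, was at 6.36, 30.7 and 29.5 CPM, with 2.02 and 3.46 CPM in the other controls (log2 fold change 2.24, SE 0.71, edgeR adjusted p = 0.391). Tmem51, a membrane protein gene, was at 1.64, 6.14 and 13.7 CPM. In these genes both hairpins were the high libraries. On the low side, the scavenging chemokine receptor gene Ackr3 was at 17.2, 4.87 and 4.02 CPM (log2 fold change −1.95, SE 0.58, edgeR adjusted p = 0.248). Gadd45a, a growth arrest gene induced by stress, was at 748, 288 and 230 CPM, with 723 and 341 CPM in the other controls, and the antiviral gene Oasl2 at 110, 39.8 and 25.6 CPM. Their control libraries all lay above both hairpins. The other genes of this group were 5 histone genes and the globin gene Hbb-bt, described with their families.

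Glycolysis splits glucose for ATP and is the main energy source of a red cell once its mitochondria are gone. The list median was higher with both hairpins, but the summed level was lower with hairpin 2. The sum was 9474 CPM with the control hairpin, 10860 CPM with hairpin 1 and 7984 CPM with hairpin 2. In the hnRNPU control hairpin and empty vector libraries it was 4049 and 3645 CPM. Of 25 genes tested, 1 rose (Pgm1) and 0 fell, and 5 were higher at an unadjusted p under 0.05, against 419 of all 15355 genes. With both hairpins, 17 were higher and 4 lower. At least 2-fold higher were 5, against 1.23% of all genes with a mean of at least 5 CPM. Above all 3 controls lay 12, against 10.9% of all genes tested. The median log2 difference was 0.48 with hairpin 1 and 0.55 with hairpin 2, against 0.00 and 0.01 over all genes, and 0.74 and 0.94 against the hnRNPU control hairpin. Pkm, the pyruvate kinase gene of growing cells, was at 194, 475 and 859 CPM, while the other controls were at 147 and 410 CPM (log2 fold change 1.78, SE 0.65, edgeR adjusted p = 0.672). Gpi1, the glucose phosphate isomerase, was at 47.7, 136 and 127 CPM. Here the other controls, at 122 and 160 CPM, were as high as the hairpins, and the control of the comparison was the low library. Reads that align to several places were set apart in a summary entry of the files, so enzymes with processed pseudogenes, such as Gapdh, are uncertain.

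Hypoxia-responsive genes, targets of the HIF transcription factors that many cells turn on at low oxygen, stood higher with hairpin 1. Of 21 tested, 0 passed edgeR's test and 4 were higher at an unadjusted p under 0.05 (419 of all 15355 genes). With both hairpins 10 were higher and 3 lower, and 7 lay above all controls (10.9% of all genes tested). The median log2 difference was 0.52 with hairpin 1 and 0.00 with hairpin 2, and 1.47 and 0.78 against the hnRNPU control hairpin. Bnip3, a mitophagy receptor, was at 156, 444 and 402 CPM, with only 16.2 and 27.0 CPM in the other controls. Both hairpins were high, and so was the control of the comparison relative to the other controls (log2 fold change 1.44, SE 0.60, edgeR adjusted p = 0.944). The oxidoreductase gene Ero1l was at 88.9, 174 and 374 CPM, and the differentiation-related gene Ndrg1 at 20.4, 33.4 and 44.2 CPM. Slc2a3, a glucose transporter gene, went the other way against the control of the comparison, at 814, 554 and 259 CPM. Its other controls, at 97.7 and 242 CPM, lay below both hairpins.

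**Figure D3:**
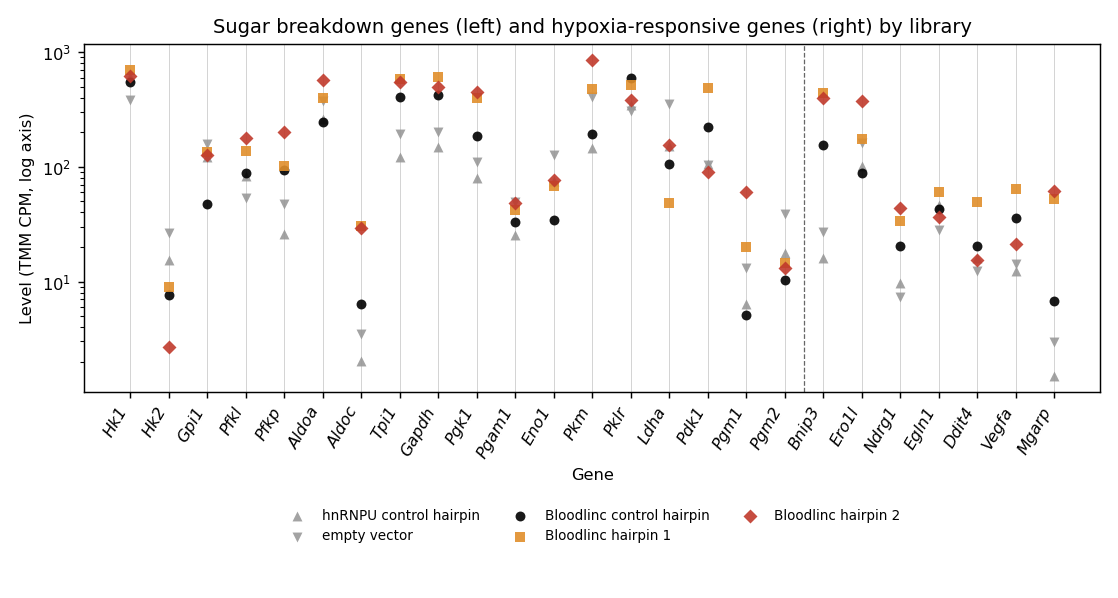
Level of genes of sugar breakdown (left of the dashed line) and of hypoxia-responsive genes with Mgarp (right), as TMM CPM on a log axis with 1 point per library. Black circles are the control hairpin, orange squares hairpin 1, red diamonds hairpin 2 and grey triangles the 2 other controls. Aldoc and Mgarp show both hairpins above every control, while for Gpi1 the other controls are at 122 and 160 CPM, level with the hairpins.

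Promoters of 3 of these genes are shown because Mgarp, Pgm1 and Bnip3 share a direction and hypoxia-responsive or sugar-handling roles. Each sequence runs from 250 bases before the RefSeq transcription start to 50 after it (GRCm38.p6), 5′ to 3′ on the strand of the gene: Mgarp chr3:51396498-51396797 minus, Pgm1 chr4:99929201-99929500 plus, and Bnip3 chr7:138909457-138909756 minus. Capitals mark 2 motifs found by a search on both strands: ACGTG, the core letters of a HIF response element (read as CACGT on the other strand), and AGATAA, letters bound by GATA factors (TTATCT on the other strand).
Mgarp: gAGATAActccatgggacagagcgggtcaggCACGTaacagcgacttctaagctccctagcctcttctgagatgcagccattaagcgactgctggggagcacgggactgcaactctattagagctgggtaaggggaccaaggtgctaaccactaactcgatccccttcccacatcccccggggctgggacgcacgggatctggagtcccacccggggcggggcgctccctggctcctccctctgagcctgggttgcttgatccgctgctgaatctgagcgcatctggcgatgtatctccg
Pgm1: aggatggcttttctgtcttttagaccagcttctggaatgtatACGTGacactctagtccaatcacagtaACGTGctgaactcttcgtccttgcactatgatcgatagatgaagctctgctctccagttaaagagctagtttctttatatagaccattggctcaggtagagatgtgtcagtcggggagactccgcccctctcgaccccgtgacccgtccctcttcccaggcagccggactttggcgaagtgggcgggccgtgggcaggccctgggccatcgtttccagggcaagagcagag
Bnip3: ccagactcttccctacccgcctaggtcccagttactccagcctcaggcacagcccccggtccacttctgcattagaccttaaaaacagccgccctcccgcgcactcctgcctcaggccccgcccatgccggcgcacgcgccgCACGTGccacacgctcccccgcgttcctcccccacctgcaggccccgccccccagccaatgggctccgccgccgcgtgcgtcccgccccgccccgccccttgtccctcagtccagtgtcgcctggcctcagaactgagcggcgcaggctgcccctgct
In Mgarp, 1 match of each motif lies far upstream of the start. Pgm1 holds 2 ACGTG matches, and the single palindromic run of Bnip3 counts as a match on each strand. Other genes were searched but are not shown. Col18a1, which also rose, held 0 ACGTG matches at both starts searched. The glycolysis genes Aldoc and Pkm held 1 and 0 matches at the first start, and 0 and 2 at the second. For the shares that follow, a gene counted when any of its starts held the motif. Of the 55 genes at least 2-fold higher with both hairpins and above all controls, 44 had a promoter entry, and 17 of them (38.6%) held ACGTG. The share was 32.0% of 6283 protein-coding genes of at least 5 CPM and 21.8% of all 27025 genes with an entry. AGATAA stood in 4 of the 44 (9.09%), against 7.27% and 12.7%. Among the 12 genes that rose, 10 had an entry, of which 6 held ACGTG and 3 held AGATAA. These matches describe letters in a window and not bound sites.

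Lipid synthesis lists lay on the high side without a call. Of 24 cholesterol synthesis genes tested, 0 passed edgeR's test and 3 were higher at an unadjusted p under 0.05 (419 of all 15355 genes). With both hairpins 14 were higher and 1 lower (median log2 difference 0.35 with hairpin 1 and 0.62 with hairpin 2). Above all controls lay 7 of the 24, against 10.9% of all genes tested. Lss, the cyclase that makes lanosterol, was at 46.9, 100 and 115 CPM, and Mvd, a mevalonate pathway decarboxylase, at 9.53, 26.2 and 25.9 CPM. The empty vector was higher still for both, at 159 and 41.6 CPM. Against the hnRNPU control hairpin both list medians were 1.65. Of 28 genes of fatty acid synthesis and lipid handling, 16 were higher and 5 lower with both hairpins. At least 2-fold higher were 4, against 1.23% of all genes with a mean of at least 5 CPM. The desaturase gene Scd2 was at 94.2, 266 and 364 CPM, and the phosphatidate phosphatase gene Lpin1 at 22.7, 32.1 and 94.2 CPM. Abcg1, a cholesterol exporter, was high with hairpin 1 alone, at 10.05, 73.6 and 11.6 CPM.

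Replication-dependent histone genes, whose mRNAs lack a poly(A) tail and are made during DNA synthesis, lay lower with both hairpins to a like extent. All 50 tested were lower with both hairpins. Among those of at least 5 CPM, 24 were at least 2-fold lower, against 1.13% of all such genes. Below all 3 controls lay 30 of the 50, against 11.3% of all genes tested. In edgeR's test 0 passed after adjustment, and 29 were lower at an unadjusted p under 0.05, against 194 of all 15355 genes tested. The median log2 difference was −1.19 with hairpin 1 and −1.21 with hairpin 2, and −2.00 and −1.97 against the hnRNPU control hairpin. Hist1h4c was at 235, 75.8 and 73.3 CPM, with 545 and 146 CPM in the other controls. Hist1h2bk was at 96.0, 30.7 and 25.5 CPM (log2 fold change −1.77, SE 0.52, edgeR adjusted p = 0.248) and Hist2h2ac at 141, 46.7 and 43.6 CPM. Both hairpins were the low libraries for each of them. Hist1h4f was at 74.5, 28.7 and 23.9 CPM and Hist1h2bb at 193, 65.3 and 76.8 CPM. By class, 10 of 12 H4 genes, 6 of 12 H2B genes, 3 of 6 H3 genes, 5 of 14 H2A genes and 2 of 6 H1 genes were at least 2-fold lower with both hairpins whatever their level. The difference between classes was not tested. Histone genes are near-identical copies of each other, so the counts of single members are uncertain where reads could not be placed uniquely.

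The other proliferation lists were lower by less, and more so with hairpin 2. Of 38 DNA replication genes, 0 passed edgeR's test and 3 were lower at an unadjusted p under 0.05, against 194 of all 15355 genes. With both hairpins 26 were lower, but the median was −0.07 with hairpin 1 and −0.92 with hairpin 2. These replication medians were 0.04 and −0.49 against the hnRNPU control hairpin. Below all controls lay 3 of the 38 genes, against 11.3% of all genes tested. Mcm6, a subunit of the replicative helicase, was at 512, 169 and 239 CPM, and Rrm2, which makes deoxynucleotides, at 1533, 896 and 413 CPM. Of 36 mitosis genes, 34 were lower with both (medians −0.46 and −0.72), with the proliferation marker Mki67 at 4031, 1837 and 1862 CPM and the chromosomal passenger gene Incenp at 263, 125 and 107 CPM. Against the hnRNPU control hairpin these mitosis medians came to 0.01 and −0.26. For Mki67 that control was at 4101 CPM and the empty vector at 1566 CPM, below both hairpins. The cyclin gene Ccne2, also of the replication list, was at 230, 98.9 and 98.6 CPM. Of 17 cell cycle inhibitor and D-type cyclin genes, with related kinases and Rb family genes, 3 were higher and 6 lower with both hairpins. The kinase gene Cdk6 was at 17.9, 71.7 and 37.7 CPM. Its other controls were at 34.3 and 45.1 CPM, so the control of the comparison was the low library.

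Genes of red cell maturation were lower with both hairpins than with their control, in lists of which some changed direction with the control library. All 7 globin genes were tested, and 5 were lower with both hairpins (medians −1.44 and −0.82). Below all controls lay 3, against 11.3% of all genes tested. Hbb-bt, an adult beta globin, was at 6958, 2567 and 1940 CPM, with 13252 and 4049 CPM in the other controls, and Hba-a2, an alpha globin, at 1269, 539 and 518 CPM. Globin copies are near-identical, so single members are uncertain. Of 17 heme synthesis genes, 16 were lower with both hairpins and 0 lay below all controls. Alas2, the first enzyme of heme synthesis in red cells, was at 12514, 7290 and 6687 CPM, against 2743 and 927 CPM in the other controls. The list medians were −0.39 and −0.49, or 0.17 and 0.07 against the hnRNPU control hairpin. Of 31 red cell membrane and skeleton genes, 1 rose (Aqp8), 24 were lower with both, and 0 lay below all controls. Aqp3, a glycerol channel, was one of the 2 that were higher with both, at 42.8, 110 and 158 CPM with 26.6 and 19.6 CPM in the other controls.

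Regulators and late maturation genes were mostly lower than with the Bloodlinc control hairpin as well. Of 26 erythroid transcription factor genes, 17 were lower and 2 higher with both hairpins. Below all controls lay 2 of the 26, against 11.3% of all genes tested. Tal1 was at 665, 448 and 216 CPM. Its other controls were at 565 and 179 CPM, so the empty vector lay below both hairpins. Its partner Lmo2 was at 187, 114 and 86.8 CPM, with both hairpins below the 250 and 133 CPM of the other controls. The list of late maturation genes, with mitophagy and enucleation, had 37 members tested, of which 29 were lower with both hairpins. Its medians were −0.46 and −0.96, or −0.02 and −0.64 against the hnRNPU control hairpin. Below all controls lay 2 of the 37, against 11.3% of all genes tested. Xpo7, a nuclear exporter of histones in maturing erythroblasts, was at 2195, 1311 and 301 CPM, and Bpgm, which makes the effector that loosens oxygen from hemoglobin, at 1009, 653 and 256 CPM. In both genes hairpin 2 was the lowest of the 3 libraries. The other controls were at 1327 and 420 CPM for Xpo7 and at 515 and 170 CPM for Bpgm. Of 25 erythropoietin signalling genes, 7 were higher and 8 lower with both, and the medians were −0.10 and −0.11. The feedback inhibitor Socs3 was at 75.3, 43.3 and 40.7 CPM. Among 21 iron genes, 12 were lower and 4 higher with both. The mitochondrial iron importer Slc25a37 was at 2425, 1451 and 704 CPM, whereas the ferrireductase gene Steap3 was at 34.2, 44.7 and 111 CPM. Of 20 progenitor genes, 7 lay below all controls (11.3% of all genes tested) and 0 above (10.9%). Myc was at 7.89, 13.3 and 7.91 CPM against 32.2 and 56.5 CPM in the other controls.

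Genes of RNA handling and protein synthesis were mostly lower. Of 77 cytosolic ribosomal protein genes, 74 were lower with both hairpins, and 41 lay below all controls, against 11.3% of all genes tested. In edgeR's test 0 passed and 1 was lower at an unadjusted p under 0.05 (194 of all 15355 genes). The medians were −0.37 and −0.64. Rpl8 was at 1146, 552 and 515 CPM, with 903 and 790 CPM in the other controls, and Rps4x at 398, 241 and 78.7 CPM. Ribosomal protein genes have many processed pseudogenes, so single values are uncertain. Of 35 hnRNP and splicing factor genes, which bind and cut pre-mRNA, 25 were lower and 2 higher with both hairpins (medians −0.15 and −0.38). Below all controls lay 13, against 11.3% of all genes tested. Srsf1 was at 1203, 1019 and 562 CPM, and its other controls, at 660 and 540 CPM, lay below hairpin 1. Mbnl1 was at 682, 429 and 395 CPM, with 767 and 784 CPM in the other controls. Of 30 nuclear architecture genes, 16 were lower with both hairpins and 2 higher. The lamin B receptor gene Lbr, needed for chromatin anchoring at the nuclear envelope, was at 1342, 800 and 599 CPM, and Smc2, a condensin subunit, at 909, 433 and 389 CPM. The empty vector was below both hairpins for these 2 genes, at 360 and 283 CPM. Among 15 erythroid and abundant long noncoding RNAs, 9 were lower with both hairpins. The nuclear RNA Malat1 was at 14530, 10290 and 5198 CPM, and its other controls, at 9818 and 8728 CPM, lay below hairpin 1.

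**Figure D4:**
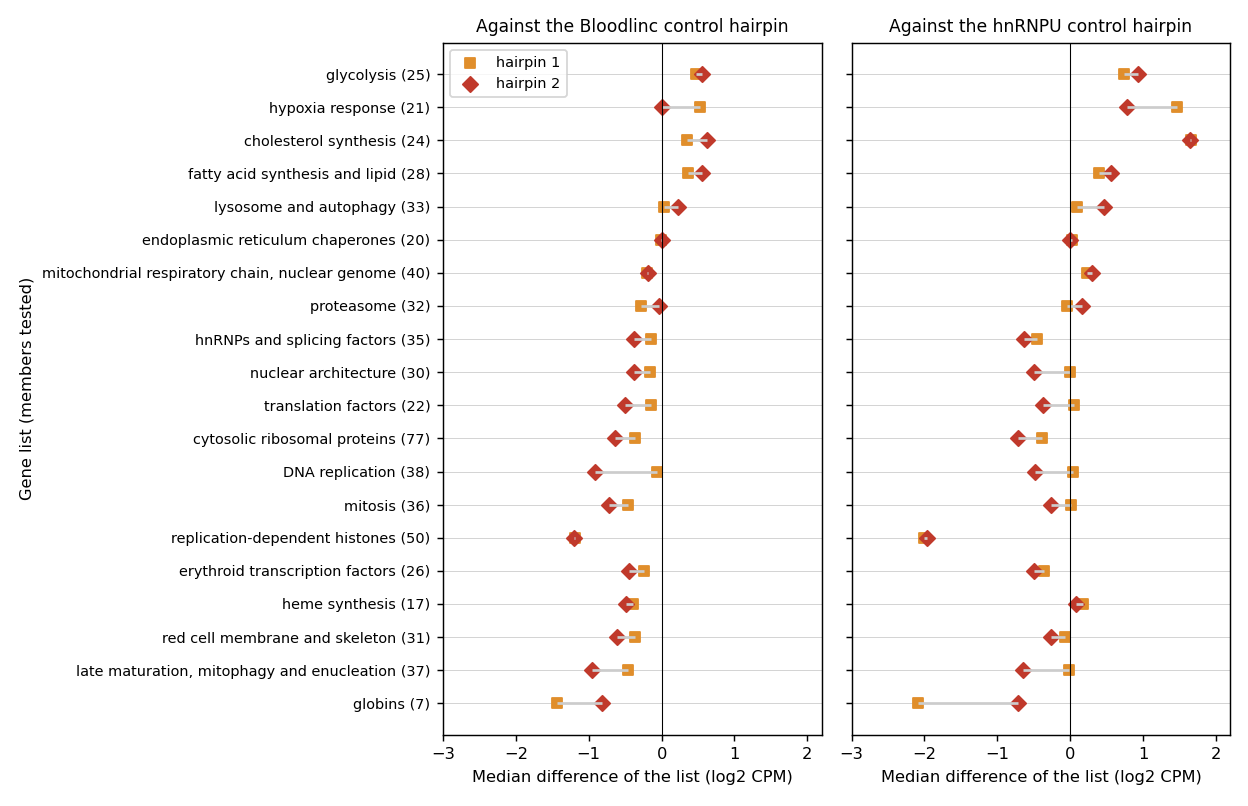
Median log2 difference of 20 of the 53 gene lists with hairpin 1 (orange squares) and hairpin 2 (red diamonds), against the Bloodlinc control hairpin on the left and the hnRNPU control hairpin on the right (log2 CPM, prior count 2), with the number of members tested in brackets. Histones are at −1.19 and −1.21 on the left and at −2.00 and −1.97 on the right, and glycolysis lies above 0 in both, whereas heme synthesis changes side.

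Stress and immune lists had no common direction. Of 33 interferon response genes, 11 were higher and 9 lower with both hairpins, with medians of −0.20 and 0.50, and Rsad2 was at 98.9, 54.1 and 22.2 CPM. Of 27 p53 target genes, 5 were higher and 9 lower with both, and Mdm2, the ubiquitin ligase of p53, was at 393, 142 and 226 CPM. Of 18 heat shock genes, 5 were higher and 6 lower. In the pentose phosphate and antioxidant list, 14 of 31 were lower with both hairpins. The glutathione synthesis gene Gclc was at 765, 470 and 151 CPM, and the cystine importer gene Slc7a11 at 111, 36.4 and 49.4 CPM. Of 25 apoptosis genes, 8 were higher and 4 lower with both, and the death agonist gene Bid was at 25.6, 98.8 and 43.0 CPM while the survival gene Bcl2l1 was at 701, 468 and 277 CPM. In edgeR's test no member of these 5 lists passed.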

How the data were processed

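Ribosomal RNA-depleted total RNA was sequenced from 8 libraries in 6 groups. Reads were aligned to mm9 by TopHat2 2.0.11 and HTSeq counted them, as the submitters' processing notes give it. Neither the HTSeq version nor the annotation and strand setting is given in the sources used here. The authors deposited raw counts for 37620 gene IDs per library, with 5 summary entries that were kept out of library sizes. GENCODE M21 (GRCm38) supplied symbols for 87.4% of the IDs. Positions refer to GRCm38 and had no part in counting.

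Counts were fitted with edgeR 4.0.16 (R 4.3.3): all 8 libraries by group, TMM scaling, filterByExpr, quasi-likelihood F-tests, Benjamini-Hochberg over 15355 genes, threshold 0.05. The groups left 2 residual degrees of freedom (prior degrees of freedom 397, common dispersion 0.145), so each gene's spread came almost wholly from the trend over all genes, and the spread of the lone control was taken to equal that of the hairpins. A gene was read as changed only with both hairpins on 1 side of the control. A prior count of 2 was added for log2 differences of 1 library from another. Ratios of counts carry 95% exact conditional binomial intervals, which cover counting error only. The fit was tested on simulated data.

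The genes and the 53 lists were chosen with earlier results of these data known. Named were Bloodlinc and the 5 nearest protein-coding genes on each side, every gene that passed, the 10 highest and lowest protein-coding genes of at least 5 CPM with both hairpins outside all 3 controls, and up to 4 members of each list with the largest fold change among those of at least 5 CPM with both hairpins on 1 side (otherwise the 2 most abundant). Of 1254 list entries, 3 were not in the reference and 54 were not tested. Alternatives were DESeq2 1.42.0, limma-voom (limma 3.58.1), other scalings, filters, controls and subsets of libraries.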

Additional observations from a re-analysis of the deposited data

How the results depend on the processing

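Counts of genes that rose or fell moved with nearly every choice except scaling: with DESeq2's size factors or upper quartile scaling they stayed within 1.5 times of 12 and 4. DESeq2 called 4 and 1, and so did robust estimation. Without a filter on low counts 2 genes fell. Limma-voom, a filter of 5 CPM in 2 libraries, the 3 libraries alone, the 6 libraries without hnRNPU hairpins and the 3 controls pooled each gave 0 and 0, with 636, 278, 369, 504 and 1565 genes at an unadjusted p under 0.05. Against the hnRNPU control hairpin 251 rose and 785 fell. In that fit 12 of the 16 genes passed, counted whatever the side of each hairpin. For Cgn and Spns2, hairpin 1 lay below that control and hairpin 2 above it. Leaving out 1 hairpin gave 0 to 53 genes that rose and 0 to 10 that fell: 53 and 10 without hairpin 1, which held 14 of the 16, and 0 and 0 without hairpin 2. In these fits the lone hairpin library is assumed to vary like the other groups. The cause was not tested.

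Of genes at least 2-fold away with both hairpins, 625 were higher and 363 lower against the hnRNPU control hairpin, 55 and 42 outside all 3 controls, and 259 and 142 with a mean of at least 1 CPM, against 99 and 91. Fos and Slc4a1 changed sign against the hnRNPU control hairpin (log2 fold changes of 0.16 and 0.0774). Medians of 17 of 52 lists with at least 3 members tested changed sign against that control and 22 against the 3 pooled controls, 5 without hairpin 1 and 9 without hairpin 2. No paired analysis was possible because the control hairpin has 1 library and shares fewer than 2 replicate numbers with the hairpins. Depth limited genes near 0 in the control, such as Muc6 and Dglucy with 5 counts each.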
